A study of Mus musculus with 10 samples.

Results

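The hippocampus of A-CREB mice was compared with that of wild-type mice after the same dose of kainate, 14 mg/kg. The comparison rests on 4 of the 10 arrays in the series, 2 of A-CREB mice and 2 of wild-type mice, chosen by their titles and paired by the replicate number that the titles give. Each array held a pool of RNA from 3 to 4 hippocampi of 3-week-old mice, so errors measure the spread between pools. The strain labels read TetO-A-CREB-95 C57BL6 F1/J for A-CREB mice and C57BL6 F1/J for wild-type mice. They are missing for wild-type kainate replicate 1 and wild-type saline replicate 2, whose titles give the genotype. The other arrays held A-CREB mice given kainate at 18 mg/kg, A-CREB mice given saline and wild-type mice given saline, again 2 arrays each. Neither the transactivator line that drives the TetO transgene nor the time from injection to dissection is stated in the sources used here.

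CREB is a transcription factor that binds the cAMP response element (CRE) in promoters and, once phosphorylated, recruits coactivators to genes that neurons switch on with activity. A-CREB is a dominant-negative protein in which the DNA-binding part of CREB is replaced by an acidic stretch, so that CREB bound to it cannot hold DNA. Kainate activates glutamate receptors, provokes seizures and induces immediate-early genes across the hippocampus, among them Fos and Npas4. The comparison asks how the expression profile after such a seizure-inducing dose differs when CREB-dependent transcription is inhibited.

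The deposited MAS5 signals were set on a scale of log2(signal + 22), and every difference below is A-CREB minus wild type on that scale with the standard error (SE) of a limma fit to all 10 arrays, with the replicate number as a block. Markers of hippocampal neurons were present: over the 10 arrays Prox1, of dentate granule cells, lay between 240 and 612, Wfs1, of CA1 pyramidal cells, between 1696 and 3048, and Neurod6, of pyramidal neurons, between 3457 and 6130. One of the 4 arrays stood apart. On wild-type kainate replicate 2 the 11 measured striatum markers summed to 21730 signal units, against 6679 and 7817 on the A-CREB kainate arrays and 6603 on wild-type kainate replicate 1, with none at 0. List medians, and differences of genes named by rule, that move by more than 1.5 times without it are given with their value without it. The arrays numbered 2 also had a higher median signal (135 to 152) than those numbered 1 (94.9 to 106), which the block takes up.

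Creb1, the gene of CREB, was the check of the labels that these arrays allow, since A-CREB keeps part of CREB. Its brightest probe set read 1714 and 1884 on the A-CREB kainate arrays, against 1962 and 1472 on the wild-type kainate arrays, a log2 difference of 0.08 (SE 0.17, adjusted p = 0.998 by limma). Its direction turned without replicate 2 of either group. Another Creb1 probe set read 164 and 92.9 in A-CREB against 130 and 61.7 in wild type after 14 mg/kg, so the groups overlapped. After saline the same probe set read 226 and 237 in A-CREB against 100 and 44.0 in wild type, and it read 196 and 216 in A-CREB after 18 mg/kg. A further probe set read 211 and 281 in A-CREB against 116 and 178 in wild type after 14 mg/kg (log2 0.68). After saline it read 252 and 252 in A-CREB against 193 and 122 in wild type. In A-CREB after 18 mg/kg it read 203 and 199, so every A-CREB array lay above every wild-type array. On the other tested Creb1 probe sets the groups overlapped after 14 mg/kg. Where these probes lie relative to the transgene was not analysed here, so the genotype of the 4 arrays was taken from their labels.

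Of 13218 genes tested, 3 rose and 2 fell in A-CREB mice after 14 mg/kg at an adjusted p under 0.05, which is 0.0227% and 0.0151% of the genes. Pmf1, Trat1 and Iigp1 rose, and C1ql2 and Doc2b fell. At an unadjusted p under 0.05, 334 genes (2.53%) were higher and 325 (2.46%) lower in A-CREB, together 659 against the 661 that chance alone would give. In both pairs of same-numbered arrays 88 genes (0.666%) were at least 1.5-fold higher on the log2(signal + 22) scale and 41 (0.31%) at least 1.5-fold lower. The 2 A-CREB arrays lay above both wild-type arrays for 1320 genes (9.99%) and below both for 1556 (11.8%). The median difference over all genes was −0.01, with 47.5% of genes higher in A-CREB, and the differences in pair 1 and pair 2 correlated with an r of 0.04 across genes. The counts for gene groups below are read against these shares.

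C1ql2, a secreted C1q-like protein made by dentate granule cells and placed at mossy fibre synapses, fell most. Its signal was 264 and 246 in A-CREB mice after 14 mg/kg, against 811 and 697 in wild-type mice. The A-CREB values lay close together and far below both wild-type values, a log2 difference of −1.48 (SE 0.19, 95% interval −1.89 to −1.07, adjusted p = 0.0165). A-CREB mice given 18 mg/kg had similar signals, 248 and 299. After saline the gap was smaller, with 521 and 428 in A-CREB against 547 and 666 in wild type (log2 −0.34). The difference between the kainate and saline gaps was −1.14 (SE 0.27, unadjusted p = 0.000893), which did not pass adjustment over all genes.

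Doc2b, a calcium sensor of the synaptic vesicle release machinery, fell by 1.21 on the log2 scale (SE 0.17, adjusted p = 0.0165). It read 546 and 639 in A-CREB after 14 mg/kg, against 1447 and 1342 in wild type. It read 653 and 719 after 18 mg/kg in A-CREB, and after saline 776 and 698 in A-CREB against 1004 and 1308 in wild type. On this probe set all 6 A-CREB arrays lay below all 4 wild-type arrays, whatever the treatment. A second, dimmer Doc2b probe set differed by −0.94 after 14 mg/kg, but did not separate the genotypes after saline, with 795 and 321 in A-CREB against 628 and 799 in wild type.

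Trat1, an adaptor protein associated with the T cell receptor, rose by 1.83 (SE 0.25, adjusted p = 0.0165). Its signal was 335 and 632 in A-CREB after 14 mg/kg, against 78.4 and 163 in wild type. The gap was also present after saline, with 355 and 434 in A-CREB against 75.3 and 236 in wild type after saline (log2 1.39), and A-CREB mice given 18 mg/kg had 380 and 547. The other Trat1 probe set separated the genotypes further. It read 352 and 430 in A-CREB against 21.97 and 50.7 in wild type after 14 mg/kg, 311 and 377 in A-CREB after 18 mg/kg, and 407 and 447 in A-CREB against 31.0 and 31.4 in wild type after saline. When all 27022 probe sets that passed the filter were tested singly, it alone passed the threshold (log2 2.86, adjusted p = 0.00334 by limma). On both probe sets every A-CREB array lay above every wild-type array.

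Pmf1, a component of the kinetochore, had the largest rise, 2.25 (SE 0.31, adjusted p = 0.0165), with 121 and 340 in A-CREB against 13.9 and 41.9 in wild type after 14 mg/kg. Both wild-type values were dim, near the added constant of 22. With a constant of 88 the difference was 1.38 and no longer passed (adjusted p = 0.0548). After saline Pmf1 read 138 and 328 in A-CREB against 112 and 138 in wild type, so the low arrays were those of wild-type mice given kainate. The value comes from a probe set whose name ends in _x_at, a class that can take up signal from related transcripts, and the gene's other probe set was too dim to be tested.

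Iigp1, an interferon-inducible GTPase that defends cells against intracellular pathogens, rose by 1.33 (SE 0.20, adjusted p = 0.0357). Its signal was 717 and 1057 in A-CREB against 245 and 453 in wild type after 14 mg/kg, and 602 and 790 in A-CREB against 508 and 521 in wild type after saline. The saline gap was 0.41, and the difference between the gaps was 0.92 (unadjusted p = 0.00631). Of the 4 arrays, wild-type kainate replicate 1 was the lowest, and A-CREB kainate replicate 2 the highest.

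These 5 calls depend on the block. Without the replicate number as a block, and so without the pairing, none of the 5 passed (adjusted p = 0.456 for C1ql2, 0.609 for Doc2b and 1 for the 3 genes that rose), with 0 genes called and 168 at an unadjusted p under 0.05. Without A-CREB kainate replicate 1 or without A-CREB kainate replicate 2 no gene passed, without wild-type kainate replicate 1 the count was 18, of which 1 (Pmf1) was among the 5. Without wild-type kainate replicate 2 it was 2, of which 1 (Iigp1, adjusted p = 0.0427) was among the 5. The other 4 then missed the threshold, with C1ql2 at −1.61 (adjusted p = 0.0713), Doc2b at −1.33 (0.0784), Trat1 at 1.88 (0.11) and Pmf1 at 2.26 (0.11), so their differences were no smaller. The second gene called without that array was Rps27, a ribosomal protein (−2.15), named after its value was seen. Without wild-type kainate replicate 1, the striatum markers Penk, Drd1, Ppp1r1b and Pde10a were among the genes called, at −2.37, −2.13, −1.80 and −1.67. The wild-type kainate array then left is the one with raised striatum markers.

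**Figure D1:**
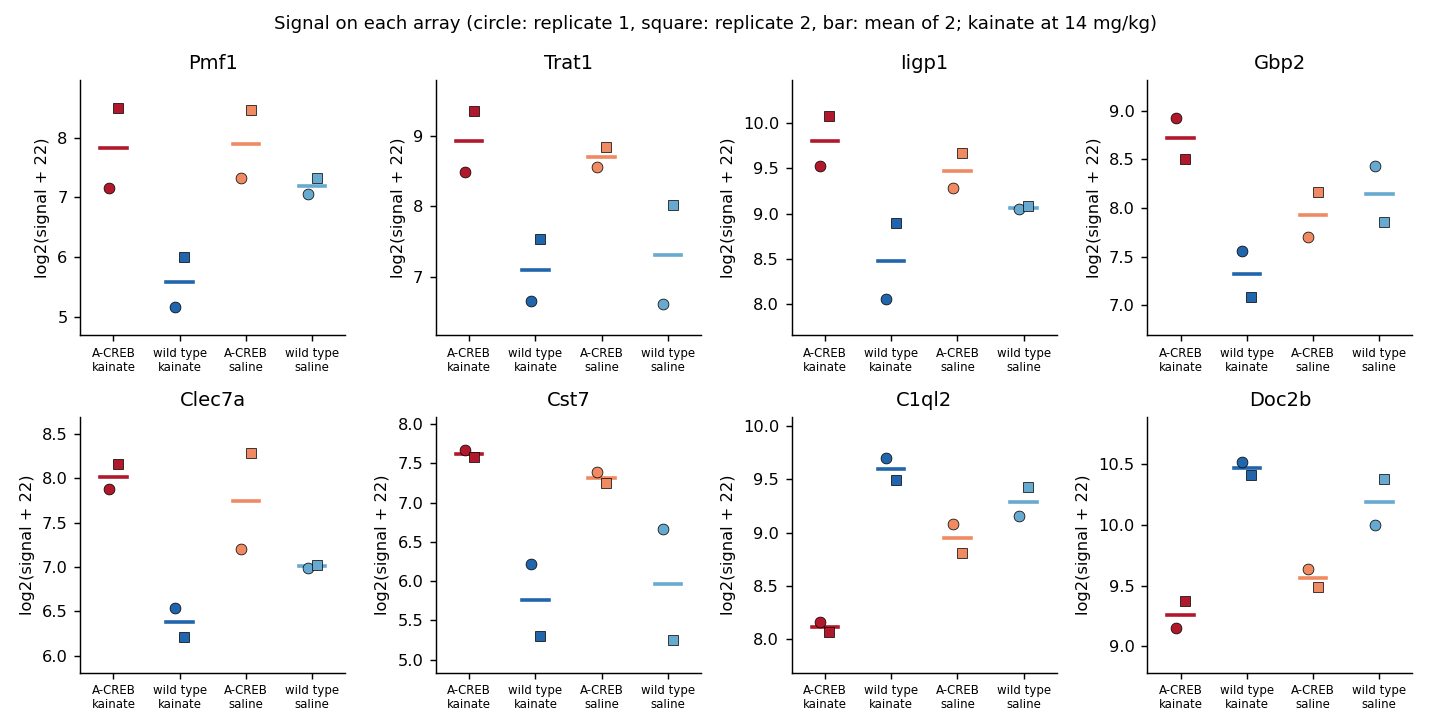
Signal of 8 genes on the arrays of 4 groups, as log2(signal + 22) on the vertical axis, with circles for replicate 1, squares for replicate 2 and a bar at the mean of 2 arrays. C1ql2 and Doc2b lie lower on both A-CREB kainate arrays than on both wild-type kainate arrays, and the other 6 genes lie higher; after saline the genotypes keep this order without overlap for every gene shown but Gbp2.

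The genes next in line by p included, on the higher side, genes of the interferon response and of microglia, and on the lower side genes of neurons. None of them passed the adjusted threshold, and they are given as values. Ifit2, an interferon-induced protein that restrains viral RNA, read 470 and 393 in A-CREB against 143 and 147 in wild type (log2 1.44, adjusted p = 0.0882). Gbp2, an interferon-induced guanylate-binding protein, read 465 and 342 against 167 and 114 in wild type (1.40, adjusted p = 0.0951). Samd9l, another interferon-induced gene, had a difference of 1.18. Clec7a, the β-glucan receptor of activated microglia, read 213 and 265 in A-CREB against 71.0 and 52.2 in wild type (1.64, adjusted p = 0.111). Ly86, a partner of the Toll-like receptor family on myeloid cells, differed by 0.85, Prss23, a serine protease, by 0.91, and Ccdc80, an extracellular matrix protein, by 0.96. For Gbp2 the saline gap ran the other way (log2 −0.22), with 186 and 264 in A-CREB against 324 and 210 in wild type. The difference between its kainate and saline gaps was 1.61 (SE 0.36, unadjusted p = 0.000503), which also missed the adjusted threshold.

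On the lower side, Ankrd63 read 322 and 239 in A-CREB against 564 and 675 in wild type (log2 −1.09, adjusted p = 0.0935). Fbll1, a fibrillarin-like methyltransferase of neurons, read 1249 and 978 against 2385 and 2089 in wild type (−0.999, adjusted p = 0.0951). Npy5r, a receptor of neuropeptide Y, read 194 and 284 in A-CREB against 452 and 537 in wild type (−1.001, adjusted p = 0.0951). After saline Npy5r differed by −0.09 only, with 430 and 510 in A-CREB against 422 and 587 in wild type. Ptprn2, a protein of dense-core vesicles, read 2530 and 2754 in A-CREB against 3817 and 4505 in wild type (−0.65), and had a like gap after saline (−0.57). Rpusd3, Rasl10a, Tmem41a and Stk26 had differences of −0.88, −0.95, −0.78 and −0.93. On the brightest probe set of each of these 8 genes both A-CREB kainate arrays lay below both wild-type kainate arrays. Dimmer second probe sets did not show this for Fbll1 (0.17), Npy5r (−0.19), Ptprn2 (0.01) and Stk26 (−0.10), and with probe sets averaged per gene the differences of these 4 were −0.42, −0.60, −0.32 and −0.51.

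Genes of antigen presentation and the interferon response were higher in A-CREB mice as a group. Of 17 listed genes 15 were measured, and all 15 were higher in A-CREB after 14 mg/kg, 10 of them at an unadjusted p under 0.05 and none at an adjusted one. The groups did not overlap for 8 of them. The median difference was 0.54, against −0.01 over all genes. The size differed between the pairs, with a median of 0.98 in pair 1 and 0.20 in pair 2. Oasl2, of the oligoadenylate synthetase family, read 772 and 533 in A-CREB against 184 and 339 in wild type (1.28, unadjusted p = 0.000456). Usp18, which removes ISG15 from proteins and damps interferon signalling, read 489 and 580 against 164 and 334 in wild type (1.11). B2m, the light chain of MHC class I, read 7408 and 6305 in A-CREB against 4194 and 5264 in wild type (0.54). Irgm1, a regulator of the immunity-related GTPases, read 607 and 835 against 264 and 613 in wild type (0.78), where the groups overlapped by a narrow margin.

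The same list was also higher in A-CREB without kainate, by a smaller amount: after saline 13 of 15 were higher, with a median of 0.30. Summed over the list, the signal was 21557 and 17076 in A-CREB after 14 mg/kg against 11253 and 14606 in wild type, 18237 and 19369 in A-CREB after 18 mg/kg, and 15257 and 19403 in A-CREB against 14666 and 12147 in wild type after saline. All 6 A-CREB sums exceeded all 4 wild-type sums. As a mean log2 level, which gives each gene the same weight, the lowest A-CREB array (saline replicate 1, −0.25) lay below wild-type kainate replicate 2 (−0.03), so the separation was not complete. By the same measure wild-type kainate replicate 1 was the lowest of the 10 arrays (−0.60). Without wild-type kainate replicate 2 the median difference after 14 mg/kg was 0.78, and on leaving out 1 array it ran from 0.29 to 0.85.

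The promoters of interferon-inducible genes commonly hold the interferon-stimulated response element (ISRE), bound by interferon regulatory factors. GAAANNGAAA was searched on either strand, from 250 bases before to 50 bases after each start of a gene in RefSeq promoters (GRCm38.p6). Some genes have several starts, and a gene counted if any of its windows held the motif. It was found for 6 of the 13 measured list members with a window (46.2%) and for 3.59% of the 10656 tested genes with one. The stretches around the motif, in capitals, are shown for 5 interferon-inducible genes, from the list and beyond it, chosen after their values were seen, each read 5′ to 3′ on the strand of its gene. The ISRE of Gbp2 and Ifit3 lies on the opposite strand and is printed as its reverse complement, and Irgm1 and Ifit3 hold 2 matches, which overlap in Irgm1.
Gbp2 (chr3:142620584-142620633, plus strand): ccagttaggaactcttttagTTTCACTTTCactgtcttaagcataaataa
Irgm1 (chr11:48871421-48871470, minus strand): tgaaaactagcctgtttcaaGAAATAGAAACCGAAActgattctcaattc
Cxcl10 (chr5:92349073-92349122, minus strand): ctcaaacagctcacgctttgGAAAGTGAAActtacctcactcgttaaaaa
B2m (chr2:122147528-122147577, plus strand): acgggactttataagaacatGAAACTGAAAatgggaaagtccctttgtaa
Ifit3 (chr19:34583353-34583436, plus strand): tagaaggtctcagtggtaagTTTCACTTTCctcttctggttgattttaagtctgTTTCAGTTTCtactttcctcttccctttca
Ifit3, a further interferon-induced protein with tetratricopeptide repeats, differed by 0.74. A match describes the letters and not a bound site, and none of the 3 called genes with a window held the ISRE.

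Microglia markers followed the same direction. Of 20 listed markers 19 were measured, 18 were higher in A-CREB after 14 mg/kg, 12 of them at an unadjusted p under 0.05 and 0 at an adjusted one, and 4 were at least 1.5-fold higher in both pairs. For 12 the groups did not overlap. The median difference was 0.49, with 0.78 in pair 1 and 0.19 in pair 2, and none of the markers was at 0 on any array. In bulk tissue, for these and the other cell types below, a change in cell number and a change in RNA per cell cannot be told apart. Cst7, a cystatin of activated microglia, read 181 and 169 in A-CREB against 52.7 and 17.4 in wild type (1.86, unadjusted p = 0.00172). Aif1, the calcium-binding protein IBA1, read 459 and 267 against 205 and 149 in wild type (0.92). Csf1r, the receptor on which microglia depend for survival, read 6006 and 6001 against 4172 and 4253 in wild type (0.51, unadjusted p = 0.00318). Its dimmer probe sets differed by 0.62 and 0.29. On the latter A-CREB read 1799 and 1080 against 1135 and 1134 in wild type, so the groups overlapped. Among markers of the resting state, the differences of Cx3cr1 and Tmem119 were 0.11 and 0.22, and that of P2ry12 was 0.49.

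The summed microglia signal was 32745 and 26575 in A-CREB against 20161 and 22972 in wild type after 14 mg/kg. It was 28932 and 31706 in A-CREB after 18 mg/kg, and 23141 and 28759 in A-CREB against 21776 and 20828 in wild type after saline. As with the interferon genes, all 6 A-CREB sums exceeded the 4 wild-type sums, by a narrow margin for A-CREB saline replicate 1. After saline 16 of 19 markers were higher in A-CREB, with a median of 0.31. Their part in the differences of the interferon genes was not tested.

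Genes of reactive astrocytes were also higher. All 10 measured of 12 listed genes were higher in A-CREB after 14 mg/kg, 6 at an unadjusted p under 0.05 and 0 at an adjusted one, with a median difference of 0.45 and like values in both pairs (0.40 and 0.49). Without wild-type kainate replicate 2, 8 of the 10 were higher, with a median of 0.34. Gfap, the intermediate filament of astrocytes, read 4488 and 3241 in A-CREB against 2662 and 2615 in wild type (0.53), and had a gap of 0.71 after saline. Vim, another intermediate filament, read 2756 and 3436 against 2089 and 2442 in wild type (0.44, or 0.28 without wild-type kainate replicate 2). A separate list of 8 astrocyte markers had a median of 0.12, or 0.19 without that array, with 6 higher in either case. Among them the water channel Aqp4 differed most by p, with 4627 and 4480 in A-CREB against 2962 and 3020 in wild type (0.60, unadjusted p = 0.000963). Cytokines and chemokines were mostly dim: 7 of 12 were measured and 6 were higher, with a median of 0.52, or 0.06 without that array. Of these Cxcl10, a chemokine induced by interferon, alone had an unadjusted p under 0.05, with 358 and 245 in A-CREB against 131 and 94.95 in wild type (1.25) and a gap of 1.05 after saline.

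**Figure D2:**
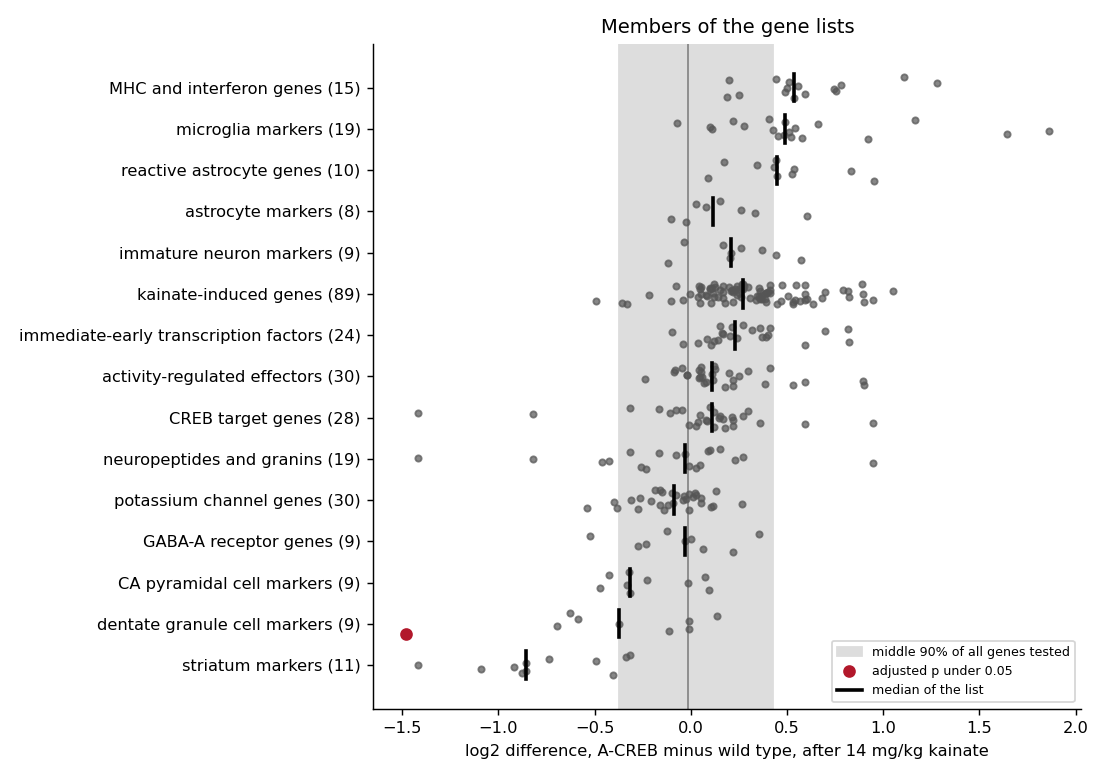
Log2 difference (A-CREB minus wild type, after 14 mg/kg kainate) of every measured member of 15 gene lists, with the number of members in brackets, a bar at each list's median and a grey band over the middle 90% of all genes tested. The interferon, microglia and reactive astrocyte lists lie to the right of 0, the dentate granule, CA pyramidal and striatum lists to the left, and C1ql2 is the one member past the adjusted threshold.

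Markers of dentate granule cells were lower. Of 10 listed 9 were measured, 8 were lower in A-CREB after 14 mg/kg, 4 at an unadjusted p under 0.05, and C1ql2 fell by the adjusted threshold. The median difference was −0.37, with −0.26 in pair 1 and −0.42 in pair 2. Stxbp6, a SNARE-binding protein, read 1715 and 1548 in A-CREB against 2662 and 2273 in wild type (−0.59, unadjusted p = 0.000878). Dsp, the desmosomal protein desmoplakin, read 390 and 772 against 783 and 1043 in wild type (−0.70), and Npnt, an extracellular matrix ligand of integrins, read 514 and 392 against 622 and 555 in wild type (−0.37, or −0.23 without wild-type kainate replicate 2). Prox1, the transcription factor that specifies granule cells, had a difference of −0.01, and Calb1, the calcium buffer of mature granule cells, one of −0.11. The summed signal of the list was 9727 and 9833 in A-CREB against 12369 and 11660 in wild type. After saline the median was −0.27 and the sums were 10777 and 11192 in A-CREB against 11148 and 12113 in wild type, so the ranges overlapped there. Without that array the list's median after 14 mg/kg was −0.23.

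The 9 markers of CA pyramidal cells had a median of −0.32, with 7 lower, 3 of these at an unadjusted p under 0.05 and 0 at an adjusted one. They were Pou3f1, a POU transcription factor of CA1 (−0.42), Fibcd1, a CA1 membrane protein (−0.47), and Wfs1, the endoplasmic reticulum protein wolframin (−0.32). Without wild-type kainate replicate 2 the list's median was −0.20, and these 3 genes differed by −0.20, −0.21 and −0.19. Neurod6 differed by 0.07, and the summed signal overlapped, with 15719 and 16583 in A-CREB against 16476 and 18369 in wild type. The median after saline was −0.23. Markers of immature neurons ran the other way: 7 of 9 were higher, with a median of 0.21 (0.23 after saline), and of 0.41 without that array. Dcx, a microtubule protein of migrating neurons, read 678 and 1438 in A-CREB against 564 and 768 in wild type (0.57), and Neurod1, a neurogenic transcription factor, 1491 and 2162 against 1179 and 1619 in wild type (0.37). Both were thus higher within each pair, although the groups overlapped. Interneuron markers were split, with 5 of 11 higher and a median of −0.05; Npy, the transmitter neuropeptide Y, read 2869 and 1766 in A-CREB against 3161 and 2915 in wild type (−0.43, or −0.21 without that array).

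**Figure D3:**
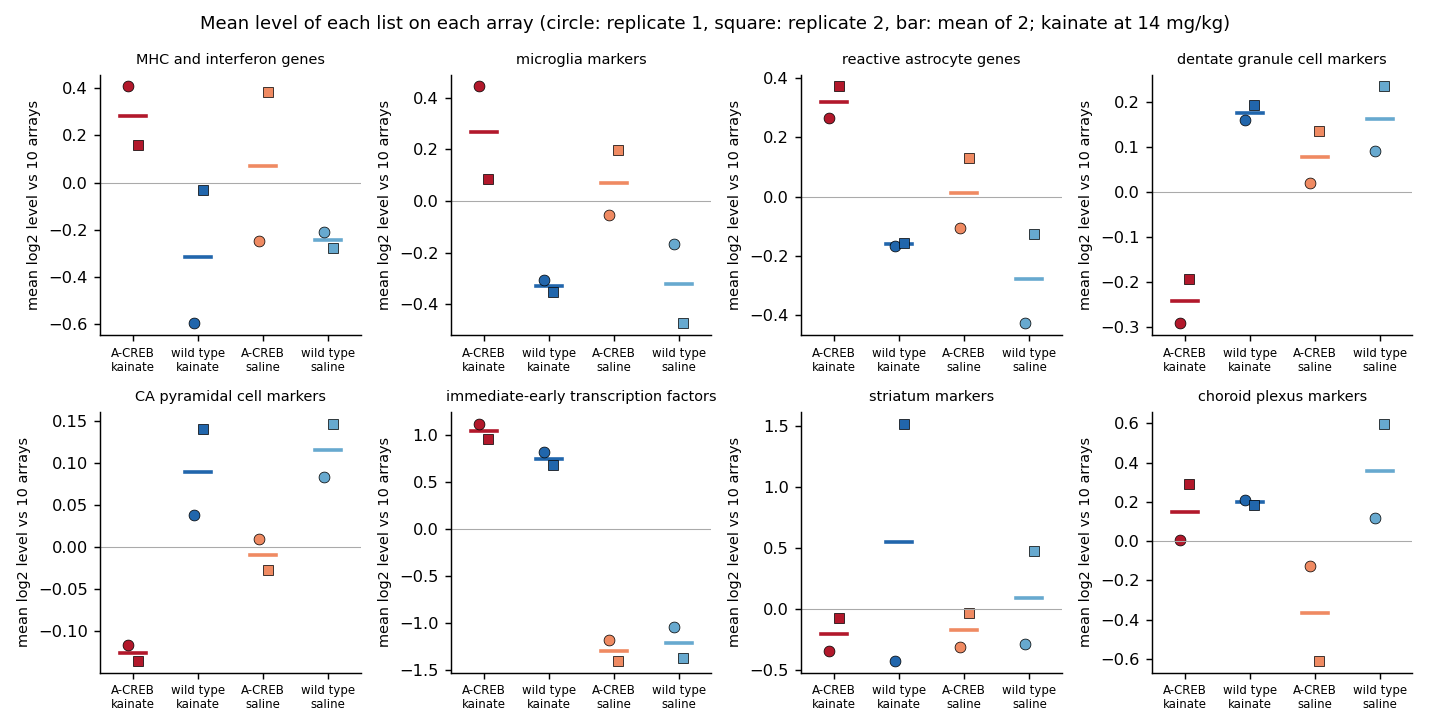
Mean log2 level of 8 gene lists on each array, relative to each gene's mean over the 10 arrays (vertical axis), for A-CREB and wild type after kainate at 14 mg/kg and after saline; circles are replicate 1, squares replicate 2 and bars the mean of 2 arrays. Microglia and reactive astrocyte genes lie higher and dentate granule and CA pyramidal markers lower on both A-CREB kainate arrays than on both wild-type ones, while striatum markers stand at 1.52 on wild-type kainate replicate 2 alone.

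The genes that kainate induces were, in most cases, somewhat higher in A-CREB mice than in wild type. A list of induced genes was taken from a difference between arrays that the comparison does not use. It holds the 89 genes that rose in A-CREB mice given 18 mg/kg over A-CREB mice given saline. The filter, the spread and the block behind that choice came from all 10 arrays, so the choice is not fully independent of the comparison. Since the list was chosen in A-CREB mice, it holds genes that can still be induced there. After 14 mg/kg 81 of the 89 (91.0%) were higher in A-CREB, against 47.5% of all genes, and the median difference was 0.27, with 0.25 in pair 1 and 0.34 in pair 2. At an unadjusted p under 0.05, 18 were higher and 1 was lower, 5 were at least 1.5-fold higher in both pairs, and none passed the adjusted threshold. The groups did not overlap for 41 higher and 2 lower genes. The mean log2 level of the list was 0.92 and 0.82 on the A-CREB arrays after 14 mg/kg against 0.65 and 0.47 on the wild-type kainate arrays. On the A-CREB arrays after 18 mg/kg, which had served to choose the list, it was 0.33 (replicate 1) and 0.98 (replicate 2). Replicate 1 at that higher dose thus lay below both wild-type kainate arrays. Without wild-type kainate replicate 2 the median was 0.15, with 71 of 89 higher. After saline 33 of 89 were higher in A-CREB, but the A-CREB saline arrays had served to choose the list, so this count is not independent of the choice.

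By smallest p the list was led by Gem, a Ras-like GTPase that limits calcium channel activity, which read 768 and 775 in A-CREB against 477 and 342 in wild type (0.90, unadjusted p = 0.00537). Akap12, an anchoring protein for protein kinase A, differed by 0.64 (0.29 without wild-type kainate replicate 2), Cwc25, a splicing factor, by 0.60 and Nfkbiz, an atypical regulator of NF-κB, by 0.79. Crh, the stress peptide corticotropin-releasing hormone, read 938 and 1631 in A-CREB against 784 and 508 in wild type (0.95, or 0.48 without that array), and after saline 281 and 343 in A-CREB against 820 and 450 in wild type (−0.92). The difference between those gaps was 1.87 (SE 0.51, unadjusted p = 0.00245), which did not pass adjustment. Ccn1, a matricellular protein, read 3379 and 1851 in A-CREB against 1330 and 1333 in wild type (0.90). On leaving out 1 array its difference ran from 0.21, without A-CREB kainate replicate 1, to 1.59, and on its probe set outside the classes _a_at and _x_at it was 0.25. On their brightest probe sets the groups did not overlap for any of these 6 genes.

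Npas4, Fos, Bdnf and Cenpa were singled out after their values were seen. Npas4, an activity-dependent transcription factor, read 16278 and 12170 in A-CREB against 10106 and 11054 in wild type, a difference of 0.41 whose 95% interval ran from −0.08 to 0.91. Fos, a subunit of AP-1, read 20356 and 16820 against 18480 and 16432 in wild type (0.09, interval −0.29 to 0.46), so the groups overlapped. Bdnf, the neurotrophin, read 4175 and 5978 in A-CREB against 4716 and 3901 in wild type (0.22, interval −0.22 to 0.66), which overlapped too. It was −0.08 without A-CREB kainate replicate 2, and 0.02 when the wild-type array of that number was left out. Cenpa, a centromeric histone variant, was the one induced gene lower at an unadjusted p under 0.05, with 843 and 868 in A-CREB against 1178 and 1248 in wild type (−0.49).

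**Figure D4:**
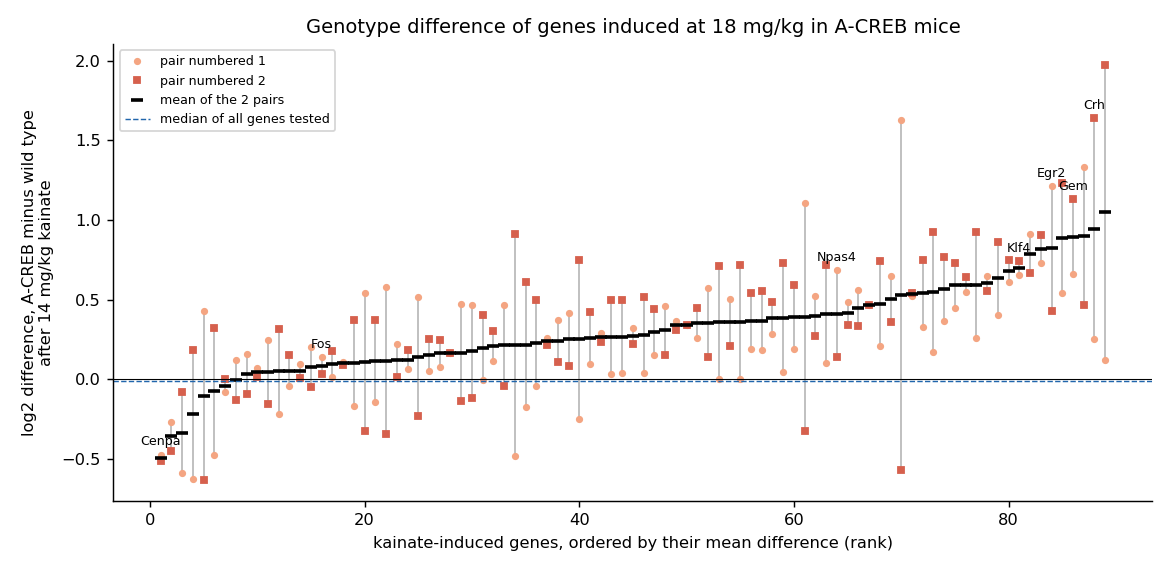
Log2 difference (A-CREB minus wild type, after 14 mg/kg kainate) of the 89 kainate-induced genes, ordered by their mean, with the pair numbered 1 as circles, the pair numbered 2 as squares and a bar at their mean; the dashed line is the median of all genes tested. The mean lies above 0 for 81 of the 89 genes, and the pairs of many genes lie far apart.

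Immediate-early transcription factors and the effector genes downstream of them are lists set by function that overlap with the induced genes. Of 24 measured transcription factors 22 were higher in A-CREB, 3 at an unadjusted p under 0.05, with a median of 0.23. Egr2, a zinc-finger factor, read 2266 and 1886 in A-CREB against 963 and 1392 in wild type (0.82), and Klf4, a Krüppel-like factor, 1704 and 1343 against 1073 and 795 in wild type (0.70, or 0.39 without wild-type kainate replicate 2). Crem, a CREB relative whose inducible form ICER represses CRE promoters, read 1067 and 1457 against 885 and 755 in wild type (0.60, or 0.32 without that array). Of 30 measured activity-regulated effectors 24 were higher, with a median of 0.11, and of 14 feedback regulators of MAP kinases 10, with a median of 0.19. Without that array these 2 medians were 0.05 and 0.12. None of the members passed the adjusted threshold.

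Genes known as CREB targets were divided. Of 28 measured 20 were higher in A-CREB after 14 mg/kg and 8 lower, with 2 at an unadjusted p under 0.05 in each direction and 0 at an adjusted one, and a median of 0.11 (−0.11 after saline, and 0.04 without wild-type kainate replicate 2). The 2 lower ones were the opioid precursors Penk and Pdyn. Pdyn, of prodynorphin, read 77.5 and 68.9 in A-CREB against 113 and 188 in wild type (−0.82, or −0.51 without that array). Penk, of proenkephalin, read 624 and 660 against 909 and 3351 in wild type (−1.42). The high Penk value came from the array with raised striatum markers, and Penk is itself among those markers; without that array its difference was −0.46. Of 11 measured members of the CREB family and its coactivators 7 were higher, with a median of 0.07, among them Atf4, of the integrated stress response (0.39, or 0.16 without that array).

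The full palindromic CRE, TGACGTCA, lay in any promoter window of 8 of the 74 induced genes with one (10.8%) and of 3.4% of all 10656 tested genes with one. Its core TGACG, which the palindrome also holds, lay on either strand in 46 of 74 (62.2%) and in 34.2% of all. Among the interferon genes above, the core lay in 8 of 13 (61.5%), a like share. None of the 3 called genes with a window held the palindrome. The stretches around it, with the CRE in capitals, are shown for 5 induced genes, chosen after their values were seen, each on the strand of its gene in GRCm38.p6.
Ch25h (chr19:34475182-34475229, minus strand): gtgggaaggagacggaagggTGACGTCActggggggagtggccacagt
Maff (chr15:79347471-79347518, plus strand): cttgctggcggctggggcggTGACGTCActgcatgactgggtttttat
Errfi1 (chr4:150854999-150855046, plus strand): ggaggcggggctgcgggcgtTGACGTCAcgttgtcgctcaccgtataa
Dusp1 (chr17:26508588-26508635, minus strand): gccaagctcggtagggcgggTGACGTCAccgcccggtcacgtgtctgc
Btg2 (chr1:134079294-134079341, minus strand): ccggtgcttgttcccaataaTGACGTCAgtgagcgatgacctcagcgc
Over all 8 induced genes with a CRE, 7 were higher in A-CREB, with differences from −0.08 to 0.82 and a median of 0.35, against 81 of 89 for the whole list. The 5 shown are those of smallest p. Maff, a small Maf transcription factor, read 489 and 483 in A-CREB against 286 and 247 in wild type (0.82), and Ch25h, cholesterol 25-hydroxylase, differed by 0.57 (0.28 without wild-type kainate replicate 2). Errfi1, which restrains the EGF receptor once induced, differed by 0.34 (0.14 without that array), Dusp1, a MAP kinase phosphatase, by 0.36 and Btg2, an antiproliferative coregulator, by 0.53. Of these, only Ch25h had an unadjusted p under 0.05, and Btg2 was 1.15 without that array and turned to −0.23 without A-CREB kainate replicate 1 and to −0.08 without wild-type kainate replicate 1.

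Genes of neuronal excitability had medians near that of all genes. Of 30 measured potassium channel genes 21 were lower in A-CREB, 3 at an unadjusted p under 0.05, with a median of −0.09; without wild-type kainate replicate 2 the median turned to 0.09, with 18 higher. Kcnab1, a potassium channel β subunit, read 2500 and 2588 in A-CREB against 3312 and 4151 in wild type (−0.54). The 16 glutamate receptor genes had a median of −0.07 and the 9 GABA-A receptor genes one of −0.03, which were −0.04 and 0.02 without that array. Gabrd, the δ subunit of extrasynaptic GABA-A receptors on granule cells, read 238 and 196 against 344 and 298 in wild type (−0.53), with a gap of −0.68 after saline. No member of these 3 lists passed the adjusted threshold.

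The difference in striatum markers rested on 1 array. All 11 measured were lower in A-CREB, with a median of −0.85, but the median was 0.16 in pair 1 and −1.57 in pair 2. Drd1, the D1 dopamine receptor, read 206 and 385 in A-CREB against 164 and 1659 in wild type, and Pde10a, a phosphodiesterase of striatal neurons, 873 and 1830 against 1057 and 5486 in wild type (−0.92, or −0.17 without wild-type kainate replicate 2). Both wild-type values of Drd1 thus bracketed the A-CREB values. Without that array the list's median was 0.09, with 7 of 11 higher, and Ppp1r1b, the striatal phosphoprotein DARPP-32, turned from −0.85 to 0.09. The part of these markers in other differences of pair 2 was not tested.

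Markers of other cell types and stress genes had medians closer to that of all genes. Myelin and endothelial markers had medians of 0.01 each (−0.04 and 0.03 without wild-type kainate replicate 2), thalamus markers one of 0.02 (0.20) and choroid plexus markers one of −0.07 (−0.06). Cytosolic heat shock genes had a median of 0.16, with 9 of 11 higher, but without that array the median turned to −0.07, with 4 of 11 higher. Endoplasmic reticulum chaperones had a median of 0.12, with 11 of 16 higher, and without that array one of 0.01, with 9 of 16 higher. Of 10 measured cell death and p53 genes 8 were higher, with a median of 0.14, and without that array 6 were, with a median of 0.04. Pmaip1, the proapoptotic protein NOXA, differed by 0.99 (0.50 without that array), with 145 and 184 in A-CREB against 108 and 45.4 in wild type. Neuropeptides and granins had a median of −0.03, with 8 of 19 higher, and without that array one of −0.11, with 9 higher. Of the blood cell markers Alas2 and of the sex-linked genes Xist were measured; Xist was present on every array, between 2989 and 6764.

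After saline, on arrays that the kainate comparison does not use, 0 genes passed the adjusted threshold in the limma fit. At an unadjusted p under 0.05, 296 genes were higher and 445 lower in A-CREB, 741 in all. Of the 10 measured choroid plexus markers 1 was higher in A-CREB after saline, with a median of −0.84, and 6 had an unadjusted p under 0.05. Their mean log2 level on the saline arrays was −0.13 and −0.61 in A-CREB against 0.12 and 0.60 in wild type. The part of these markers in other saline gaps was not tested. Across all genes the difference after kainate and the difference after saline correlated with an r of 0.13, a description over genes that are not independent. The test of whether the 2 differences differed also called 0 genes, with 473 at an unadjusted p under 0.05 and no adjusted p below 1. An effect seen after kainate and smaller after saline is therefore not shown to differ between the treatments for any gene named here.

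**Figure D5:**
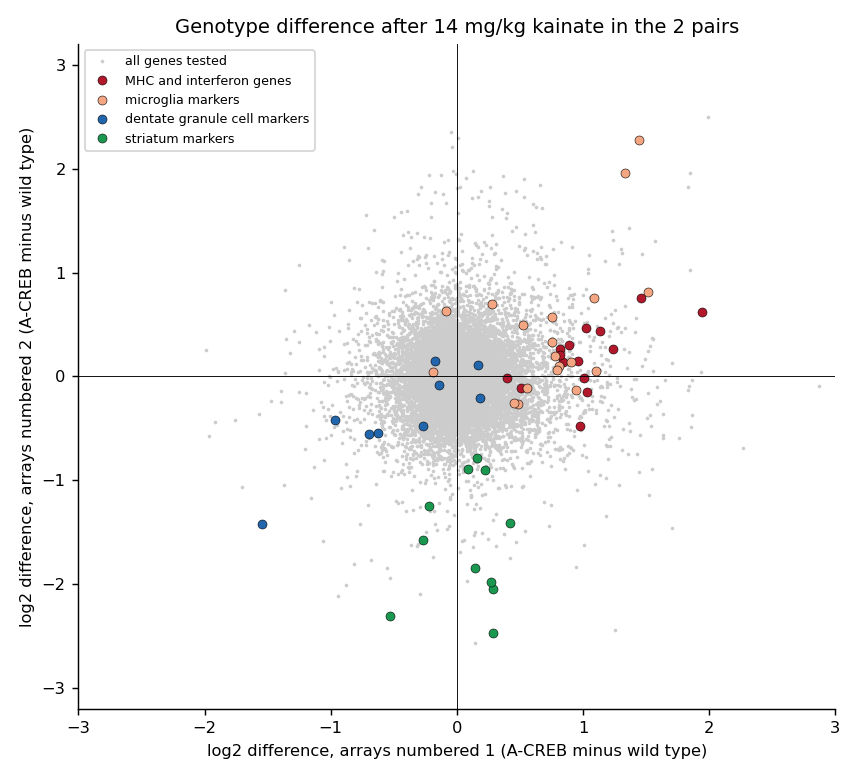
Log2 difference (A-CREB minus wild type, after 14 mg/kg kainate) of each of 13218 genes in the arrays numbered 1 (horizontal axis) and in those numbered 2 (vertical axis), with 4 gene lists coloured; 1 gene lies outside the axes. Interferon and microglia genes spread to the right and several dentate granule markers to the lower left, whereas striatum markers lie low on the vertical axis alone.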

How the data were processed

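The authors deposited one linear intensity per probe set and array (Affymetrix Mouse430_2, 45101 probe sets), made with MAS5 in GCOS per the submitters' processing notes, with no version stated. As tested on the file, the 2% trimmed mean of each array was 500, so arrays had been scaled to a common mean before deposit. Scaling of that kind does not make the distributions alike.

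Of the probe sets 64 were controls, 34945 named 1 gene, 932 several and 9160 none, in the platform's table of probe sets and genes. The upper 60% by mean signal over all arrays were kept (27022), and each gene took its brightest probe set (13218 genes). The constant of 22 lowers the fold of dim genes. limma 3.58.1 in R 4.3.3 (lmFit, eBayes with an intensity trend) was fitted to the 5 groups with the replicate number as a block (4 residual degrees of freedom), two-sided, with Benjamini-Hochberg adjustment over all genes and a threshold of 0.05.

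The pairing comes from the numbers in the titles. The labels do not say what they mark, nor that pools of 1 number were handled together. Each of the 10 arrays had its highest correlation with one of its own number, and the difference between numbers 2 and 1 correlated between 0.52 and 0.64 over the 10 pairs of groups. With 2 arrays a group, their number limits the precision. The procedure was tested on simulated data.

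The members and gene lists were chosen with earlier results of these data known. Genes named are those past the threshold with groups that do not overlap, filled up to 10 a direction by smallest p, and, for each list, the 4 members of smallest p at most, with exceptions stated in the text. Prox1, Calb1, Neurod6, Cx3cr1, Tmem119, P2ry12 and Drd1 were named for what they mark, after their values were seen. Alternatives were another constant, filter, normalization, variance model, choice of probe sets, arrays in the fit, no block, and leaving out each array.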

Additional observations from a re-analysis of the deposited data

How the results depend on the processing

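The count of 5 genes after 14 mg/kg was 0 without the replicate number as a block (pairing ignored), 0 with no filter on dim probe sets and 0 with no intensity trend, with 168, 889 and 664 genes at an unadjusted p under 0.05. It was 3 with probe sets averaged per gene, 3 without probe sets of the classes _s_at, _x_at and _a_at, and 111 (74 higher, 37 lower) when only the 4 arrays were fitted, which leaves 1 residual degree of freedom. Leaving out 1 array gave 0 to 18. It was 9 without either A-CREB saline array, and 4 or 5 under another constant, the upper 40%, quantile or cyclic loess normalization and robust variance. The cause of these differences was not tested. After saline the count was 1 with probe sets averaged per gene and 0 to 1 on leaving out an array. For the difference between the genotype differences it was 0 to 2, reaching 2 when wild-type kainate replicate 1 was left out and 1 when wild-type saline replicate 1 was; without the block both stayed at 0.

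The induced list itself changes with the fit. Higher in A-CREB were 28 of 31 genes without the block, 41 of 46 with no filter, 16 of 18 with no intensity trend, and 31 of 34 (lacking replicate 2 of the A-CREB group at 18 mg/kg) to 85 of 99 on leaving out an array; without A-CREB saline replicate 1 it was 53 of 61.

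Of 1585 recomputed differences of 73 genes, 1483 kept their direction and side of the threshold, 39 lost the call, 57 gained one and 6 turned, in 4 genes. On leaving out an array Ppp1r1b ran from −1.80 to 0.0866 (positive lacking wild-type kainate replicate 2), Bdnf from −0.0758 to 0.51 (negative lacking A-CREB kainate replicate 2), Btg2 from −0.23 to 1.29 (negative lacking replicate 1 of either kainate group) and Creb1 from −0.12 to 0.28 (negative lacking replicate 2 of either kainate group). Over the alternatives the difference of C1ql2 ran from −1.61 to −1.29, of Doc2b from −1.33 to −1.07, of Trat1 from 1.43 to 2.34, of Iigp1 from 1.03 to 1.62 and of Pmf1 from 1.38 to 2.81.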
